A study of Mus musculus with 20 samples.

Results

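The genes described here encode the machinery that copies DNA, and 43 were chosen by name: origin licensing factors, the replicative helicase, the polymerases, the sliding clamp with its loader and the single-strand binding proteins, the enzymes that join Okazaki fragments, the enzymes that make deoxynucleotides, a chromatin assembly factor and the E cyclins. Of the 43, 42 had a probe set annotated with a single gene symbol, of 18193 such genes in all, and for each the brightest such probe set, by its mean level over all 20 arrays, was read. Chaf1a had no probe set of a single symbol and is not analysed here. The study profiled RNA of livers and liver tumours of male C57BL/6 mice with a conditional APCko genotype, 5 arrays a group. Adenomas (APCko_Adenoma) and phenobarbital-treated non-tumour liver (PB_NT) came from mice on a diet with 0.05% phenobarbital for 9 months. Carcinomas (APCko_Carcinoma) and untreated non-tumour liver (H2O_NT) came from mice that the labels give no treatment for the same 9 months. All mice were given 0.75 mg of tamoxifen at the age of 6 weeks, per the sample protocols, and the diets started 1 week later. The series' design text names an initiating dose of DEN, diethylnitrosamine, in its place, and which holds is not settled in the sources used here. The untreated group is called H2O in its name, and its protocol gives standard chow.

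Before a cell divides, the origin recognition complex marks the start sites of replication, and Cdc6 and Cdt1 load the MCM ring, an inactive helicase, on the DNA there. In S phase the ring is activated by Cdc45 and the GINS complex, primase and the polymerases copy both strands, and the clamp PCNA holds the polymerases to the template. Most of these genes are transcribed under E2F factors when cells leave quiescence, so their RNA is low in adult liver, where few hepatocytes divide, and high in regenerating or tumour tissue. APC holds down beta-catenin, and its loss in hepatocytes turns on Wnt target genes. Phenobarbital is a liver tumour promoter in rodents.

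Values are the authors' log2 expression values, so 1 unit is a 2-fold step, and they compare arrays for 1 gene, not genes with each other. Differences, their standard errors (SE) and p-values come from 1 limma fit over the 4 groups, with p-values adjusted over all 18193 genes, and a gene is said to have risen or fallen where its adjusted p was under 0.05. The labels do not say which arrays come from the same mouse, so the p-values rest on the spread between samples, which may be technical in part. No wild-type liver is in the comparison, and the sources used here give neither the part of Apc that is deleted nor the cell type that drives the deletion. Apc itself read 8.79 to 9.25 in adenomas and 10.53 to 10.97 in carcinomas, against 8.43 to 8.71 in phenobarbital liver and 8.64 to 8.97 in untreated liver. Without the deleted part, these values do not check the genotype. Of 8 hepatocyte genes, all 8 fell in carcinomas, where 37.7% of all genes fell. Alb (serum albumin) fell by 2.30 and Cps1 (a urea cycle enzyme) by 7.04. The mean level of the list was 6.83 to 10.63 on the carcinoma arrays, against 13.67 to 13.81 in untreated liver. In adenomas, where 11.3% of all genes fell, 1 of the 8 fell, Cps1. The list read 12.89 to 13.62 there, against 13.59 to 13.71 in phenobarbital liver. Hepatocyte RNA was far lower in the carcinomas, and in the adenomas 7 of the 8 genes did not pass the test. The median of the 8 adenoma differences was -0.0049. The fit shares the spread of a gene over the 4 groups, so variable carcinomas widen the adenoma tests and smaller changes can be missed. The SD of Alb was 2.03 in carcinomas and 0.023 in adenomas. In bulk tissue, fewer cells of a type and less RNA per cell cannot be told apart.

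More DNA replication genes rose than fell in both kinds of tumour against the non-tumour liver of the same diet, and none passed the test between the diets in non-tumour liver. In adenomas 19 of the 42 rose and 2 fell against phenobarbital liver, where 24.7% of all genes passed the test, 13.5% higher and 11.3% lower. In carcinomas 31 of the 42 rose and 5 fell against untreated liver, where 69.2% of all genes passed, 31.5% higher and 37.7% lower. Probe sets of Fen1, Dut and Rrm1 passed in opposite directions, and Cdc45 changed sign with the mean of its probe sets. With these 4 set aside, 18 of 38 rose and 1 fell in adenomas, and 29 rose and 3 fell in carcinomas. The median of the 42 differences was 0.62 in adenomas and 0.81 in carcinomas, on the log2 scale, where the median gene of the whole table differed by -0.034 and -0.12. The arrays of the groups did not overlap for 19 higher genes in adenomas (10.4% of all genes) and for 21 higher genes in carcinomas (25.6% of all genes). The 2 kinds of tumour differ in diet as well as in stage, so diet and stage cannot be told apart between them.

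**Figure D1:**
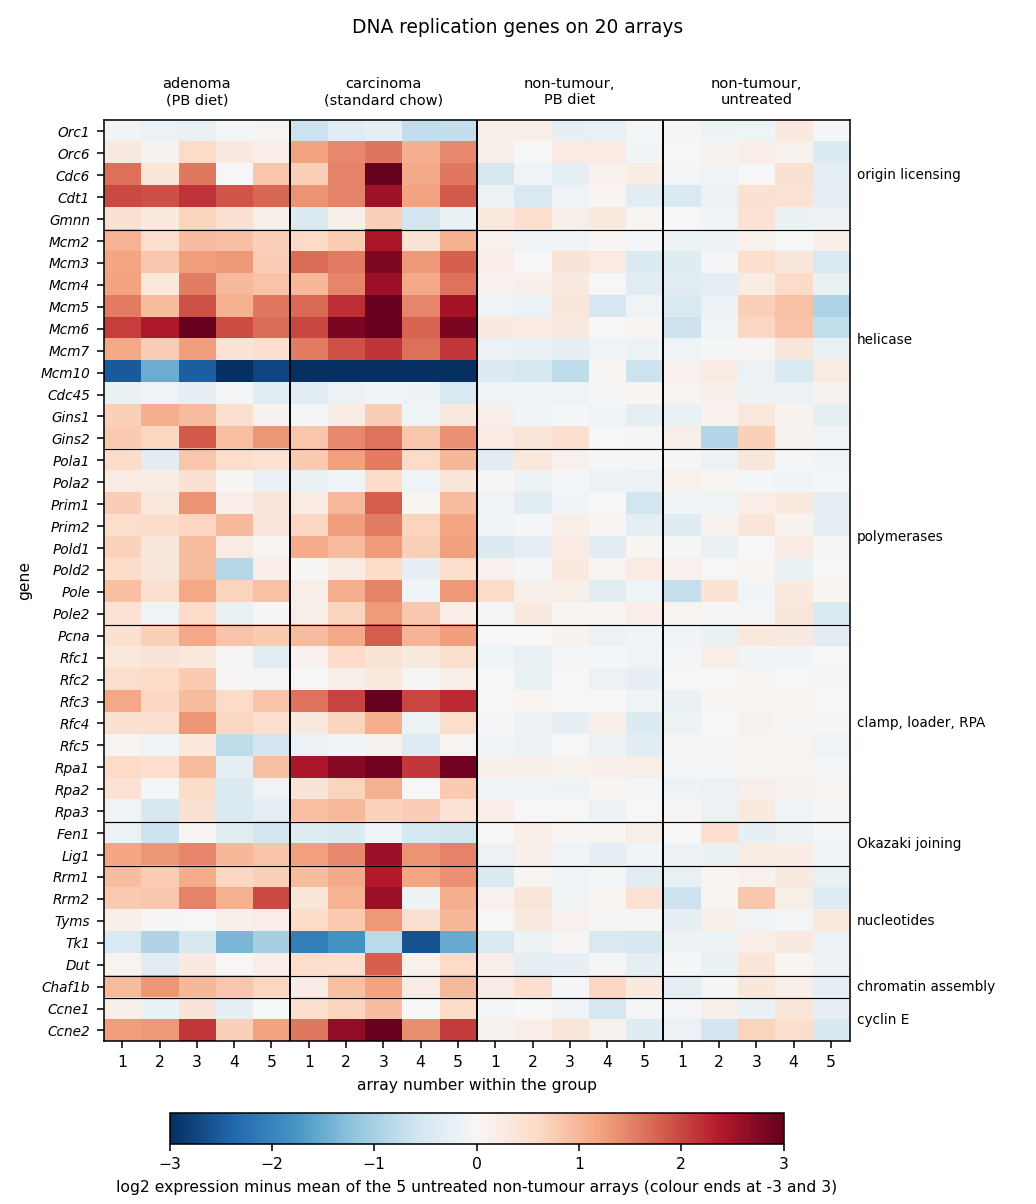
Each cell is the log2 expression of 1 gene (rows, grouped by role) on 1 array (columns, 5 a group), less the mean of the 5 untreated arrays; red is higher and blue lower. Most rows are red in the adenoma and carcinoma columns, and Mcm10, Tk1 and Orc1 are blue in the carcinomas.

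**Figure D2:**
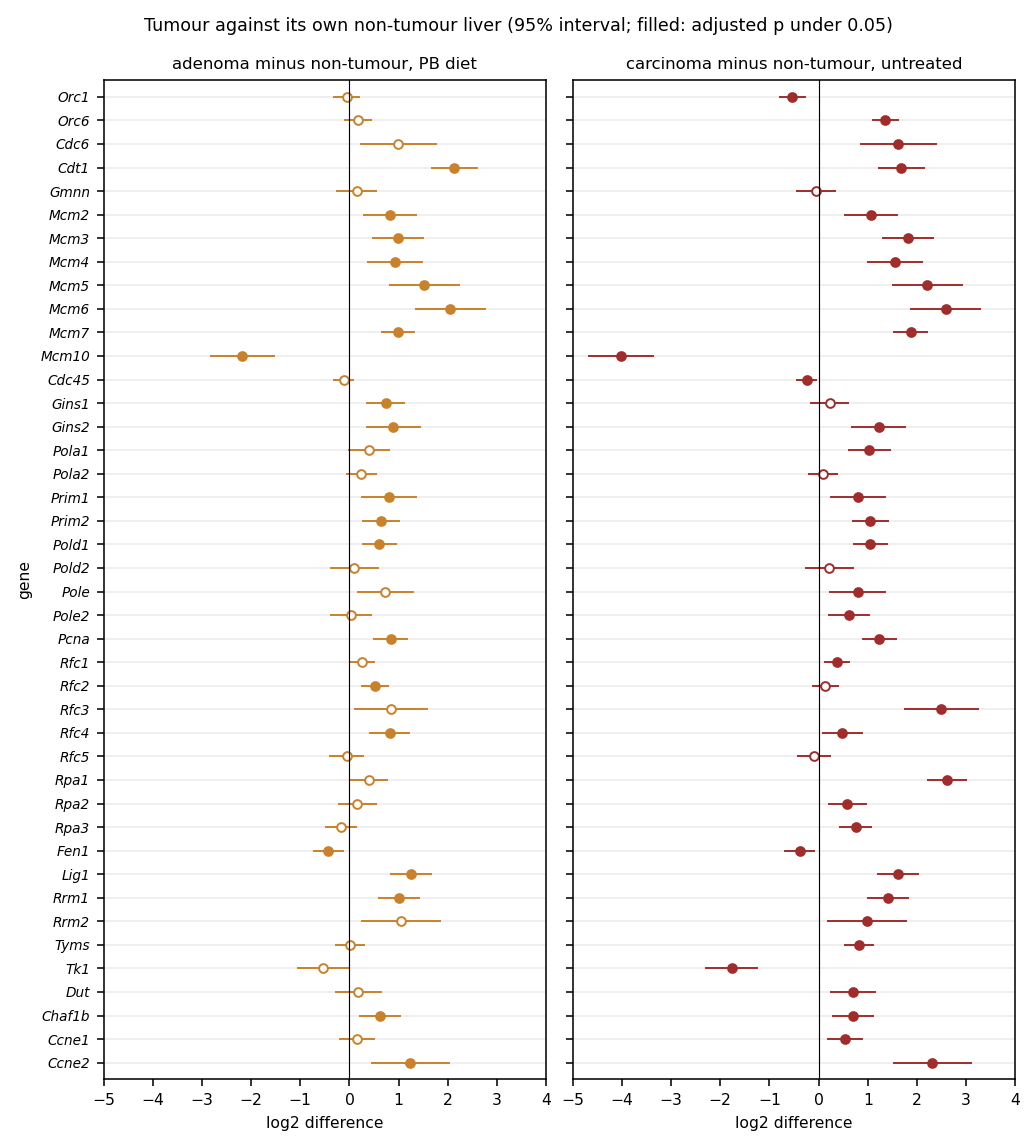
Points are log2 differences of 42 genes with 95% intervals, adenoma minus phenobarbital liver on the left and carcinoma minus untreated liver on the right; filled points have an adjusted p under 0.05. The MCM2 to MCM7 genes lie right of 0 in both panels, and Mcm10 lies farthest left.

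The promoters of 9 members are shown first, since sequence played no part in the choice of the 43 genes. Some carry the site of E2F factors, under which many replication genes are transcribed. The 9 are examples, and the frequency of the site is given for all members with a promoter. E2F factors bind near the start sites of many replication genes, and 4 spellings of their site were searched on both strands, TTTCCCGC, TTTGGCGC, TTTCGCGC and TTTGCCGC. Promoters of 300 bases (250 before and 50 after the start) come from RefSeq, build GRCm38.p6, and 35 of the 43 members had one. Of the 35, 12 held at least 1 spelling (34.3%), against 2.6% of the 27025 genes in the promoter table and 3.8% of 14452 genes that were measured on the arrays. CCAAT, on either strand, was in 21 of the 35 (60.0%), against 41.1% of all promoters. Below are the 160 bases before the start, read toward it, with the E2F spellings in capitals. Mcm6, Mcm5, Cdc6, Rfc3 and Pola1 rose in carcinomas and hold a spelling.
Mcm6, chr1:128359706-128359865, minus strand: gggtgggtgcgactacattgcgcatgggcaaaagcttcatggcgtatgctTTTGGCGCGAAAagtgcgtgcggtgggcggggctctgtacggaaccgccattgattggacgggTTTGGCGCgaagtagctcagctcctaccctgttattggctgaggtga
Mcm5, chr8:75109349-75109508, plus strand: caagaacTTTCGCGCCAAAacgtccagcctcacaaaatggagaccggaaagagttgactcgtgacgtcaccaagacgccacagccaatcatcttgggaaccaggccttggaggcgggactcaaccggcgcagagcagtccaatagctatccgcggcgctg
Cdc6, chr11:98907991-98908150, plus strand: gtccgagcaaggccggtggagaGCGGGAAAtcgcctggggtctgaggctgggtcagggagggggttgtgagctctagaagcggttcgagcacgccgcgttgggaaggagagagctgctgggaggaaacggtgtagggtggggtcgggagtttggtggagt
Rfc3, chr5:151651209-151651368, minus strand: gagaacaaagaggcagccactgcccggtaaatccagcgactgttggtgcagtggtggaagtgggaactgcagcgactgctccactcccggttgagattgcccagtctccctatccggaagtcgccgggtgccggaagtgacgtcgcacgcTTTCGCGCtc
Pola1, chrX:93632156-93632315, minus strand: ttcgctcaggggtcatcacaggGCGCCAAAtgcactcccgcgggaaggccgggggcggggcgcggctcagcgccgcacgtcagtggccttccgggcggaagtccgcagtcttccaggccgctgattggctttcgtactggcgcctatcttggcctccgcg
Orc1 fell in carcinomas and holds a spelling, while Rpa1, which rose most, and Mcm10 and Tk1, which fell most, hold none in this window.
Orc1, chr4:108579294-108579453, plus strand: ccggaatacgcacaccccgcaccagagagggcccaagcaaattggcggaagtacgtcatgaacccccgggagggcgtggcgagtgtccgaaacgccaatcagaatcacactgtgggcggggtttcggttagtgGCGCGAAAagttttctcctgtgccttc
Rpa1, chr11:75348384-75348543, minus strand: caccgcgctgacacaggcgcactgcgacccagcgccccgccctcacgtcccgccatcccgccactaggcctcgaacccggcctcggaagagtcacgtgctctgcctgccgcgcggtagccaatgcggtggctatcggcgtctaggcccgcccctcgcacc
Mcm10, chr2:5012792-5012951, minus strand: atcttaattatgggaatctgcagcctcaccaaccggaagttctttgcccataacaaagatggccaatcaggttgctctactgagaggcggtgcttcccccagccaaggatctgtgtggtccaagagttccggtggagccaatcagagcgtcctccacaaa
Tk1, chr11:117826015-117826174, minus strand: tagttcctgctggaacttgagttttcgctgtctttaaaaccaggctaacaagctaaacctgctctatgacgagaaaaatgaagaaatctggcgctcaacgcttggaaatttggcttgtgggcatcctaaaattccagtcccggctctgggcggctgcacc
In Mcm6 and Mcm5 a forward and a reverse spelling overlap and are capitalised as a single stretch. Among the 34 measured members with a promoter, a spelling was in 11 of the 26 that rose in carcinomas, in 1 of the 5 that fell and in 0 of the 3 that did neither. Without Fen1, Dut, Rrm1 and Cdc45 it was in 11 of 24 that rose and in 1 of 3 that fell. A match describes these letters only, and binding was not measured.

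Among the 5 origin licensing genes, Cdt1, which brings the MCM ring to the origin, rose in both kinds of tumour. Cdt1 read 9.09, 9.04, 9.29, 9.00 and 8.84 in adenomas, against 6.97, 6.66, 7.01, 7.17 and 6.78 in phenobarbital liver. Every adenoma array lay above every phenobarbital array, and the difference was 2.13 (SE 0.22, adjusted p = 8.62e-07), the largest rise among the members in adenomas. In carcinomas it read 8.47, 8.60, 9.67, 8.32 and 8.95, against 6.67, 6.95, 7.57, 7.55 and 6.84 in untreated liver, and the difference was 1.68 (SE 0.22, adjusted p = 1.12e-06). Untreated arrays 3 and 4 were the highest of their group and still lay under every carcinoma. The mean of the 3 Cdt1 probe sets gave 1.27 in adenomas and 0.90 in carcinomas, smaller than the brightest alone.

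Cdc6, the loader that works with Cdt1, is among the 4 members whose mean level did not exceed the median probe set. It read 5.41, 4.11, 5.35, 3.78 and 4.60 in adenomas, against 3.26, 3.66, 3.47, 3.89 and 3.99 in phenobarbital liver, and adenoma 4 lay inside the range of the non-tumour arrays. The difference of 1.00 missed the test (adjusted p = 0.0532, 95% interval 0.23 to 1.76). Carcinomas read 4.47, 5.25, 6.94, 4.89 and 5.34, against 3.70, 3.65, 3.76, 4.21 and 3.47 in untreated liver, a rise of 1.62 (SE 0.37, adjusted p = 6.60e-04) with no overlap.

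Orc6, the smallest subunit of the origin recognition complex, separated the tumours. Its adenoma values were 7.05, 6.87, 7.33, 7.03 and 6.97, against 6.92, 6.76, 7.02, 7.01 and 6.69 in phenobarbital liver, a difference of 0.17 that did not pass (adjusted p = 0.341). Its carcinoma values were 7.97, 8.20, 8.38, 7.86 and 8.21, against 6.77, 6.87, 6.96, 6.87 and 6.36 in untreated liver, a rise of 1.36 (SE 0.12, adjusted p = 8.02e-09). All 5 adenomas lay below all 5 carcinomas.

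Orc1, the largest subunit, went the other way in carcinomas. In adenomas it read 7.09, 6.98, 6.95, 7.11 and 7.24, against 7.34, 7.34, 6.93, 6.93 and 7.10 in phenobarbital liver, which overlapped. It read 6.51, 6.83, 6.92, 6.43 and 6.45 in carcinomas, against 7.21, 6.999, 7.03, 7.46 and 7.12 in untreated liver, and fell by 0.54 (SE 0.12, adjusted p = 6.72e-04) with no overlap. The second Orc1 probe set, dimmer at a mean of 4.28, differed by 0.074 in carcinomas (adjusted p = 0.531), so the fall rests on 1 probe set. Prpf38a, a splicing factor gene whose span overlaps Orc1 in RefSeq, rose by 1.17 in carcinomas.

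Gmnn, geminin, which holds Cdt1 inactive after an origin has fired, passed neither tumour test. It read 8.80, 8.64, 9.02, 8.79 and 8.50 in adenomas, against 8.63, 8.84, 8.51, 8.63 and 8.41 in phenobarbital liver. Carcinomas read 7.93, 8.49, 9.04, 7.78 and 8.15, against 8.33, 8.25, 8.77, 8.14 and 8.19 in untreated liver. Its carcinoma difference was -0.060 (95% interval -0.45 to 0.33), and its values overlapped in both comparisons.

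All 6 subunits of the MCM ring, the motor that unwinds the template, rose in both kinds of tumour, by 0.83 to 2.05 in adenomas and by 1.06 to 2.58 in carcinomas. Of all genes, 13.5% rose in adenomas and 31.5% in carcinomas. Mcm6 moved most of the ring. Mcm6 read 8.78, 9.13, 9.75, 8.66 and 8.38 in adenomas, against 6.98, 6.97, 6.995, 6.73 and 6.79 in phenobarbital liver, a 4.14-fold rise (log2 2.05, SE 0.34, adjusted p = 1.70e-04). It read 8.73, 9.53, 10.24, 8.46 and 9.54 in carcinomas, against 6.09, 6.58, 7.34, 7.58 and 5.99 in untreated liver, a 5.99-fold rise (log2 2.58, SE 0.34, adjusted p = 1.23e-06). The lowest tumour array of either kind lay above every non-tumour array, although untreated arrays 3 and 4 were above the other 3 of their group.

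Mcm5 read 8.47, 7.86, 8.81, 7.97 and 8.47 in adenomas, against 6.80, 6.73, 7.24, 6.39 and 6.81 in phenobarbital liver. In carcinomas the values were 8.61, 9.11, 10.09, 8.36 and 9.39, against 6.44, 6.72, 7.61, 7.77 and 5.97 in untreated liver. No groups overlapped, and the rises were 1.52 (SE 0.33, adjusted p = 0.00228) in adenomas and 2.21 (SE 0.33, adjusted p = 8.66e-06) in carcinomas. The probe set used ends in _x_at, a mark for probes that can bind related transcripts, and another Mcm5 probe set gave 0.97 and 1.34, still past the test.

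Mcm2 had the smallest rise of the ring. It read 9.18, 8.67, 9.08, 9.05 and 8.87 in adenomas, against 8.28, 8.02, 8.07, 8.21 and 8.12 in phenobarbital liver, and rose by 0.83 (SE 0.25, adjusted p = 0.0212). Carcinomas read 8.75, 8.92, 10.60, 8.56 and 9.22, against 7.997, 7.9995, 8.28, 8.16 and 8.31 in untreated liver, and rose by 1.06 (SE 0.25, adjusted p = 0.00107). Carcinoma 3 stood above the other carcinomas. With quantile normalization the adenoma difference of 0.73 missed the test (adjusted p = 0.0565).

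Mcm7 differed between the tumours. It read 10.12, 9.72, 10.25, 9.39 and 9.48 in adenomas, against 8.82, 8.78, 8.74, 8.88 and 8.84 in phenobarbital liver, and rose by 0.98 (SE 0.16, adjusted p = 1.42e-04). It read 10.52, 10.89, 11.13, 10.65 and 11.11 in carcinomas, against 8.87, 8.93, 9.03, 9.33 and 8.79 in untreated liver, and rose by 1.87 (SE 0.16, adjusted p = 2.59e-09). Every adenoma lay under every carcinoma. Mcm3 and Mcm4 rose by 0.98 and 0.93 in adenomas and by 1.82 and 1.56 in carcinomas. The mean of the 5 Mcm3 probe sets missed the test in adenomas (0.45, adjusted p = 0.0613).

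Mcm10, which helps to activate the helicase and recruits polymerase alpha, fell while the ring rose. It read 8.42, 9.47, 8.48, 7.05 and 8.18 in adenomas, against 10.54, 10.47, 10.19, 10.99 and 10.31 in phenobarbital liver, and fell by 2.18 (SE 0.31, adjusted p = 3.89e-05). It read 7.05, 6.56, 7.63, 6.71 and 6.70 in carcinomas, against 11.09, 11.19, 10.78, 10.48 and 11.19 in untreated liver, and fell by 4.02 (SE 0.31, adjusted p = 6.66e-10). Every tumour array lay below every non-tumour array of its diet. The 3 Mcm10 probe sets differed: the second, at a mean of 5.14, fell by 1.73 in carcinomas and by 0.61 in adenomas, and the third, at a mean of 3.94, differed by 0.12 and -0.22 without passing. Which transcripts the brightest probe set binds was not tested.

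Cdc45, the helicase activator, fell by 0.24 in carcinomas (SE 0.091, adjusted p = 0.0235), a call that leaving out carcinoma 1 or 5, or untreated array 1, 2 or 5, ended (-0.19 to -0.22). It read 7.41, 7.58, 7.68, 7.61 and 7.30 in carcinomas, against 7.85, 7.90, 7.61, 7.58 and 7.87 in untreated liver, and the groups overlapped. In adenomas the values were 7.55, 7.66, 7.51, 7.71 and 7.44, against 7.66, 7.63, 7.66, 7.70 and 7.81 in phenobarbital liver, also overlapping. The dimmer Cdc45 probe set gave 0.44 in carcinomas (adjusted p = 0.0509), so the direction rests on the probe set, and quantile normalization gave -0.49 for the brighter.

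The GINS subunits complete the helicase. Gins1 read 8.14, 8.50, 8.36, 7.92 and 7.52 in adenomas, against 7.59, 7.33, 7.37, 7.33 and 7.14 in phenobarbital liver, and rose by 0.74 (SE 0.18, adjusted p = 0.00526), with adenoma 5 inside the range of the non-tumour arrays. It read 7.38, 7.65, 8.16, 7.29 and 7.71 in carcinomas, against 7.19, 7.53, 7.72, 7.52 and 7.11 in untreated liver, where 0.22 did not pass (adjusted p = 0.278). Gins2 rose by 0.89 in adenomas and by 1.22 in carcinomas with no overlap in either.

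Of the 8 polymerase genes, 3 rose in adenomas and 6 in carcinomas, where 13.5% and 31.5% of all genes rose, and none of the 8 fell in either. Their differences had a median of 0.50 in adenomas and 0.80 in carcinomas, and the largest rise was 1.05. Pola1, the catalytic subunit of polymerase alpha, which starts each new strand with primase, read 6.82, 5.94, 7.09, 6.78 and 6.69 in adenomas, against 5.93, 6.58, 6.39, 6.21 and 6.21 in phenobarbital liver. Adenoma 2 lay at the low end of both groups, and 0.40 did not pass (adjusted p = 0.152, 95% interval -0.013 to 0.81). It read 7.05, 7.48, 7.83, 6.84 and 7.26 in carcinomas, against 6.19, 6.11, 6.59, 6.22 and 6.18 in untreated liver, and rose there by 1.03 (SE 0.20, adjusted p = 1.21e-04) with no overlap.

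Prim1, the catalytic primase subunit, read 7.95, 7.53, 8.55, 7.42 and 7.57 in adenomas, against 7.11, 6.90, 7.12, 7.22 and 6.66 in phenobarbital liver, a rise of 0.80 (SE 0.26, adjusted p = 0.0316) with no overlap. Leaving out adenoma 1 or 3 or phenobarbital array 2 or 5 ended that call (0.62 to 0.78). It read 7.46, 8.18, 9.01, 7.26 and 8.15 in carcinomas, against 7.12, 7.08, 7.40, 7.51 and 6.93 in untreated liver, a rise of 0.80 (SE 0.26, adjusted p = 0.0113) with overlap. With quantile normalization neither call stood (0.72, adjusted p = 0.0588, in adenomas, and 0.57, adjusted p = 0.0704, in carcinomas).

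Prim2, the large primase subunit, read 6.52, 6.54, 6.65, 6.96 and 6.34 in adenomas, against 5.92, 5.96, 6.16, 6.06 and 5.71 in phenobarbital liver, and rose by 0.64 (SE 0.17, adjusted p = 0.00984). It read 6.62, 7.24, 7.53, 6.66 and 7.19 in carcinomas, against 5.64, 6.11, 6.36, 6.11 and 5.76 in untreated liver, and rose by 1.05 (SE 0.17, adjusted p = 2.28e-05). Neither pair of groups overlapped. The mean of its 3 probe sets ended the adenoma call (0.24, adjusted p = 0.11).

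Pold1, the catalytic subunit of polymerase delta, which copies the lagging strand, read 7.17, 6.82, 7.42, 6.73 and 6.57 in adenomas, against 6.06, 6.20, 6.73, 6.13 and 6.53 in phenobarbital liver, and rose by 0.61 (SE 0.16, adjusted p = 0.00897). It read 7.59, 7.42, 7.75, 7.18 and 7.71 in carcinomas, against 6.45, 6.28, 6.49, 6.73 and 6.43 in untreated liver, and rose by 1.05 (SE 0.16, adjusted p = 1.09e-05). Carcinomas did not overlap untreated liver, and adenoma 5 lay below phenobarbital array 3, which adenoma 4 barely exceeded. These values come from an _x_at probe set, and the other Pold1 probe set passed in neither comparison (0.29, adjusted p = 0.168, in adenomas, and 0.25, adjusted p = 0.132, in carcinomas).

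Pole, the catalytic subunit of polymerase epsilon, which copies the leading strand, read 6.81, 6.39, 7.06, 6.57 and 6.78 in adenomas, against 6.45, 6.05, 6.08, 5.60 and 5.78 in phenobarbital liver, a difference of 0.73 just outside the threshold (adjusted p = 0.0548). It read 6.10, 6.99, 7.39, 5.83 and 7.20 in carcinomas, against 5.23, 6.31, 5.83, 6.21 and 5.97 in untreated liver, and rose by 0.79 (SE 0.27, adjusted p = 0.0136), with carcinomas 1 and 4 inside the untreated range. Pole2, an accessory subunit of the same enzyme, rose by 0.62 in carcinomas and did not pass in adenomas (0.040, adjusted p = 0.908). Pola2 and Pold2, accessory subunits of polymerases alpha and delta, passed in neither tumour, with differences of 0.093 to 0.24.

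Pcna, the sliding clamp, rose in both tumours with no overlap. It read 10.99, 11.25, 11.67, 11.39 and 11.32 in adenomas, against 10.51, 10.51, 10.63, 10.35 and 10.45 in phenobarbital liver, a rise of 0.84 (SE 0.16, adjusted p = 6.52e-04). It read 11.48, 11.68, 12.34, 11.55 and 11.79 in carcinomas, against 10.46, 10.33, 10.85, 10.80 and 10.22 in untreated liver, a rise of 1.23 (SE 0.16, adjusted p = 1.06e-06). Even adenoma 1, the lowest tumour array, stood above all 10 non-tumour arrays.

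The loader that opens the clamp, replication factor C, did not move as a block. Of its 5 subunits, 2 rose in adenomas and 3 in carcinomas, where 13.5% and 31.5% of all genes rose. Rfc3 read 8.30, 7.75, 8.08, 7.70 and 7.98 in adenomas, against 7.14, 7.18, 7.13, 7.14 and 6.998 in phenobarbital liver, where the groups did not overlap but 0.85 did not pass the test, whose spread is shared with the carcinomas (adjusted p = 0.09). It read 8.76, 9.14, 11.69, 9.14 and 9.36 in carcinomas, against 6.94, 7.18, 7.18, 7.21 and 7.12 in untreated liver, and rose by 2.49 (SE 0.35, adjusted p = 3.94e-06). Carcinoma 3 stood far above the other carcinomas.

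Rfc4 rose in both. It read 7.35, 7.38, 8.21, 7.50 and 7.39 in adenomas, against 6.85, 6.75, 6.63, 7.03 and 6.47 in phenobarbital liver, a rise of 0.82 (SE 0.19, adjusted p = 0.00348) with no overlap. It read 7.16, 7.56, 7.97, 6.73 and 7.40 in carcinomas, against 6.72, 6.89, 6.997, 6.91 and 6.91 in untreated liver, a rise of 0.48 (SE 0.19, adjusted p = 0.0312) that was lost without carcinoma 2, 3 or 5 or untreated array 1 (0.33 to 0.47), and with arrays centred on their medians or quantile normalized (0.42 and 0.23). Eif4a2, a translation factor gene that overlaps Rfc4 in RefSeq, fell by 0.63 in adenomas and rose by 0.74 in carcinomas.

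Rfc1, the large subunit, read 8.47, 8.55, 8.46, 8.18 and 7.81 in adenomas, against 8.02, 7.94, 8.11, 8.10 and 8.02 in phenobarbital liver, without passing (0.25, adjusted p = 0.135). It read 8.28, 8.71, 8.57, 8.42 and 8.63 in carcinomas, against 8.13, 8.33, 8.08, 8.07 and 8.15 in untreated liver, and rose by 0.37 (SE 0.12, adjusted p = 0.00983), a call lost with quantile normalization (0.17) and without untreated arrays 3 and 4 (0.32, adjusted p = 0.0593). Rfc2 rose by 0.52 in adenomas and not in carcinomas (0.14, adjusted p = 0.32). Rfc5 differed by -0.059 in adenomas and -0.092 in carcinomas, without passing.

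Replication protein A coats single-stranded DNA. Of its 3 subunits, 0 rose in adenomas and all 3 rose in carcinomas, where 13.5% and 31.5% of all genes rose. Rpa1 had the largest rise of any member in carcinomas. It read 10.66, 10.57, 11.02, 9.77 and 10.96 in adenomas, against 10.22, 10.21, 10.17, 10.21 and 10.25 in phenobarbital liver, where adenoma 4 was lowest of the 10 and 0.39 did not pass (adjusted p = 0.135). It read 12.49, 12.80, 12.95, 12.17 and 12.95 in carcinomas, against 10.01, 10.03, 10.13, 10.14 and 9.99 in untreated liver, a 6.11-fold rise (log2 2.61, SE 0.18, adjusted p = 1.66e-10), with every carcinoma far above every untreated array. Rpa2 and Rpa3 differed by 0.16 and -0.17 in adenomas without passing, and rose by 0.58 and 0.75 in carcinomas. The Rpa2 rise was lost with quantile normalization (0.34, adjusted p = 0.103).

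Lig1, the ligase that seals Okazaki fragments, rose in both tumours with no overlap. It read 7.82, 7.96, 8.11, 7.63 and 7.50 in adenomas, against 6.46, 6.81, 6.54, 6.37 and 6.56 in phenobarbital liver, a rise of 1.26 (SE 0.20, adjusted p = 9.86e-05). It read 7.87, 8.08, 9.20, 7.98 and 8.13 in carcinomas, against 6.46, 6.44, 6.87, 6.87 and 6.57 in untreated liver, a rise of 1.61 (SE 0.20, adjusted p = 4.89e-07). Carcinoma 3 stood apart above the other carcinomas.

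Fen1, the nuclease that trims the flap before ligation, had 2 probe sets that passed in opposite directions. The brighter, an _x_at probe set, read 9.05, 8.62, 9.29, 8.90 and 8.68 in adenomas, against 9.24, 9.43, 9.29, 9.31 and 9.41 in phenobarbital liver, and fell by 0.43 (SE 0.14, adjusted p = 0.0301). It read 8.87, 8.83, 9.15, 8.71 and 8.67 in carcinomas, against 9.21, 9.72, 8.97, 9.09 and 9.16 in untreated liver, and fell by 0.38 (SE 0.14, adjusted p = 0.0199). Both pairs of groups overlapped. The other probe set, with a mean of 6.47, rose by 0.96 in adenomas (adjusted p = 0.00851) and by 1.55 in carcinomas (adjusted p = 1.85e-05). No direction is therefore given for Fen1. The falls of the brighter probe set also missed the test without untreated array 2 (-0.26) or carcinoma 5 (-0.34), and, in adenomas, without adenoma 2 or 5 or phenobarbital array 2 or 5 (-0.36 to -0.41) and with array weights (-0.38).

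Among the genes for deoxynucleotides, the large subunit of ribonucleotide reductase rose in both tumours. Rrm1 read 8.35, 8.18, 8.54, 8.04 and 8.15 in adenomas, against 6.99, 7.49, 7.30, 7.36 and 7.09 in phenobarbital liver, a rise of 1.01 (SE 0.20, adjusted p = 9.53e-04). It read 8.38, 8.57, 9.80, 8.62 and 8.80 in carcinomas, against 7.21, 7.47, 7.56, 7.69 and 7.19 in untreated liver, a rise of 1.41 (SE 0.20, adjusted p = 3.59e-06). Neither pair overlapped, but a dimmer Rrm1 probe set fell by 0.24 in adenomas and by 0.23 in carcinomas.

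Rrm2, the small subunit whose level sets the enzyme's activity in S phase, was more variable. It read 8.16, 8.18, 8.88, 8.46 and 9.36 in adenomas, against 7.51, 7.74, 7.27, 7.48 and 7.83 in phenobarbital liver, where the groups did not overlap and 1.04 narrowly missed the test (adjusted p = 0.0506). It read 7.75, 8.43, 9.98, 7.23 and 8.49 in carcinomas, against 6.75, 7.42, 8.20, 7.56 and 6.99 in untreated liver, a rise of 0.99 (SE 0.38, adjusted p = 0.0266) with overlap. Without carcinoma 3 the difference was 0.59, and that call was also lost without untreated array 1 (0.83) or 5 (0.89), with quantile normalization (0.77), with the mean of its probe sets (0.71) and with only the 2 groups in the fit (adjusted p = 0.077).

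Tk1, the salvage enzyme thymidine kinase, fell in carcinomas. It read 8.16, 7.70, 8.12, 7.25 and 7.62 in adenomas, against 8.15, 8.46, 8.65, 8.15 and 8.13 in phenobarbital liver, where -0.54 did not pass (adjusted p = 0.126). It read 6.53, 6.80, 7.81, 6.00 and 7.11 in carcinomas, against 8.47, 8.46, 8.81, 8.89 and 8.43 in untreated liver, and fell by 1.77 (SE 0.25, adjusted p = 3.32e-06) with no overlap. Carcinoma 3, highest of its group in most members, was also highest here. Tk1 has a single probe set, and Afmid, a kynurenine pathway enzyme gene that overlaps Tk1 in RefSeq, fell by 1.92 in adenomas and by 5.07 in carcinomas. Its part in the Tk1 value was not tested. Overlapping genes of other members also passed in carcinomas in the member's direction: Klhdc1 (1.09) with Pole2, Ints8 (0.80) with Ccne2, Smyd4 (0.53) with Rpa1, Gse1 (0.39) with Gins2 and Ufd1 (-0.49) with Cdc45. The part of these in the members' values was not tested either.

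Tyms, thymidylate synthase, was dim, and read 4.05, 3.95, 3.90, 4.06 and 4.10 in adenomas and 3.91, 4.17, 4.03, 3.93 and 3.94 in phenobarbital liver, where 0.015 did not pass. It read 4.46, 4.68, 5.20, 4.37 and 4.90 in carcinomas, against 3.61, 4.05, 3.79, 3.84 and 4.22 in untreated liver, a rise of 0.82 (SE 0.14, adjusted p = 2.75e-05) with no overlap. The mean of its 4 probe sets gave 0.16 in carcinomas, still past the test, but by itself 1 of the 4 passed.

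Dut, the enzyme that keeps uracil out of DNA, had probe sets in opposite directions. In adenomas the brighter read 7.96, 7.57, 8.15, 7.87 and 8.09, against 8.03, 7.60, 7.63, 7.86 and 7.62 in phenobarbital liver, with overlap. It read 8.41, 8.36, 9.67, 8.02 and 8.45 in carcinomas, against 7.83, 7.68, 8.25, 7.93 and 7.73 in untreated liver, and rose by 0.70 (SE 0.22, adjusted p = 0.00822), or by 0.43 without carcinoma 3, and missed the test with quantile normalization (0.49, adjusted p = 0.0671). The dimmer fell by 0.58 in adenomas (adjusted p = 0.0195) and by 0.72 in carcinomas (adjusted p = 0.00101). No direction is given for Dut.

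Chaf1b, a subunit of the factor that places histones on new DNA, read 5.89, 6.27, 5.94, 5.74 and 5.58 in adenomas, against 5.16, 5.44, 4.91, 5.55 and 5.22 in phenobarbital liver, and rose by 0.63 (SE 0.19, adjusted p = 0.0221). The call was lost without adenoma 2 (0.53) or phenobarbital array 3 (0.54), and the mean of its 2 probe sets gave 0.34, still past the test. It read 5.15, 5.84, 6.14, 5.17 and 5.90 in carcinomas, against 4.66, 4.97, 5.27, 5.14 and 4.64 in untreated liver, a rise of 0.71 (SE 0.19, adjusted p = 0.00323) with overlap. With the mean of its probe sets the carcinoma rise was 0.25. By itself, 1 of the 2 passed in each comparison.

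The E cyclins drive the entry into S phase with Cdk2. Ccne2 read 6.57, 6.60, 7.42, 6.01 and 6.51 in adenomas, against 5.41, 5.51, 5.67, 5.42 and 4.94 in phenobarbital liver, and rose by 1.23 (SE 0.37, adjusted p = 0.0202) with no overlap, a call lost without adenoma 3 (1.03) or phenobarbital array 5 (1.12). It read 6.89, 7.96, 9.17, 6.70 and 7.41 in carcinomas, against 5.13, 4.77, 5.99, 5.83 and 4.83 in untreated liver, and rose by 2.32 (SE 0.37, adjusted p = 1.90e-05), also with no overlap.

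Ccne1 moved less. It read 6.47, 6.14, 6.72, 6.06 and 6.34 in adenomas, against 6.30, 6.32, 6.21, 5.82 and 6.30 in phenobarbital liver, and 0.15 did not pass (adjusted p = 0.554). It read 6.84, 7.003, 7.26, 6.32 and 6.91 in carcinomas, against 6.26, 6.48, 6.14, 6.70 and 6.07 in untreated liver, and rose by 0.54 (SE 0.17, adjusted p = 0.00814) with overlap, a call lost with quantile normalization (0.32, adjusted p = 0.101).

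**Figure D3:**
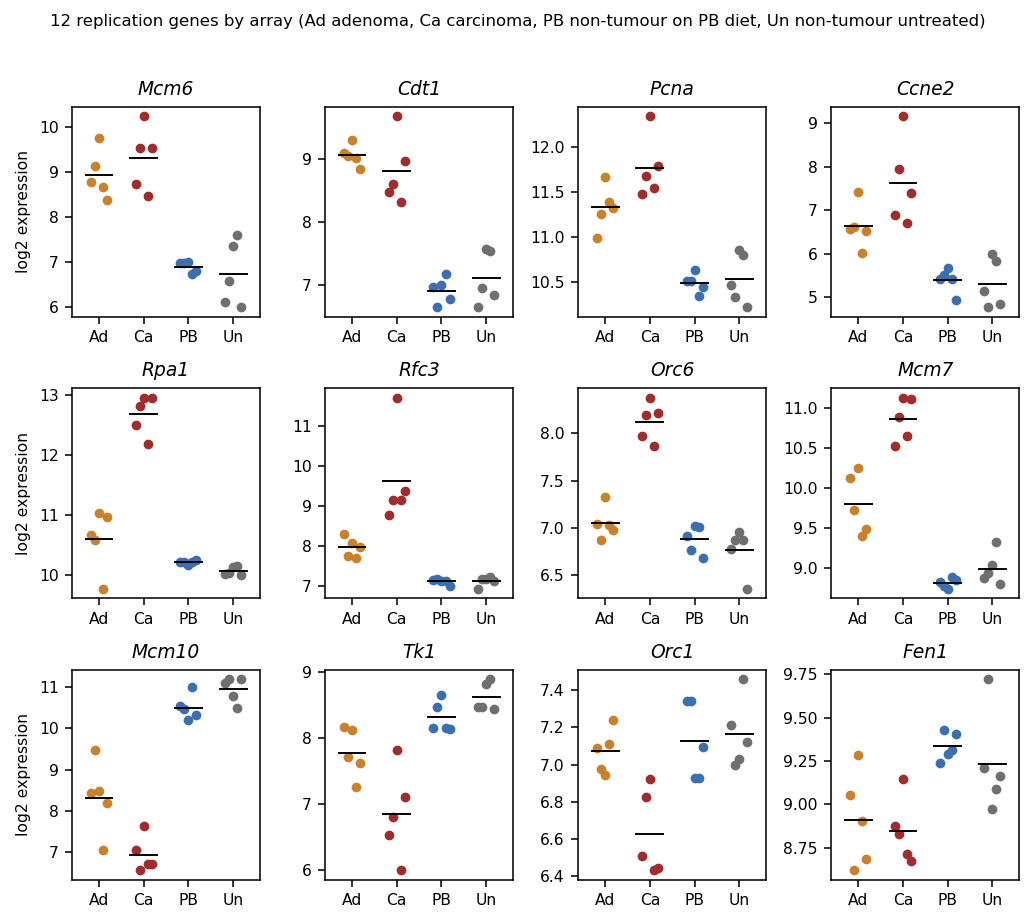
Points are the log2 expression of 12 genes on single arrays in array order, with a black line at the group mean; Ad is adenoma, Ca carcinoma, PB phenobarbital liver and Un untreated liver. Rpa1, Rfc3 and Orc6 stand high in the carcinomas above the other 3 groups, and Mcm10 and Tk1 are lowest there.

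Set against each other, adenomas were lower than carcinomas in 18 of the 42 genes and higher in 5, where 62.3% of all genes passed, 28.7% lower and 33.7% higher. The median member difference, adenoma minus carcinoma, was -0.40, beside 0.10 for all genes. The arrays of the tumours did not overlap for 5 lower genes (20.1% of all genes). With only the tumours in the fit, 10 were lower and 3 higher, and with quantile normalization 9 were lower and 7 higher. The calls also depended on single arrays, with 18 genes passing without carcinoma 2 or without carcinoma 3. Rpa1 and Rfc3 had the largest differences of the 42, while the other 4 subunits of replication factor C did not pass. Rpa1 differed by -2.08 (SE 0.18, adjusted p = 6.12e-09) and Rfc3 by -1.66 (SE 0.35, adjusted p = 4.43e-04), both with all adenomas below all carcinomas. For Rfc3, carcinoma 3 read 11.69 and the other carcinomas 8.76 to 9.36, so that array enlarged the Rfc3 difference. Orc6 and Mcm7 differed by -1.07 and -1.07, and Tyms by -0.71, likewise without overlap.

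The 5 genes higher in adenomas than in carcinomas were Mcm10 (1.39), Tk1 (0.92), Gmnn (0.47), Gins1 (0.45) and Orc1 (0.44). Of these, Mcm10, Tk1 and Orc1 had fallen in carcinomas. The Gmnn call was lost without adenoma 1, 3 or 4 or carcinoma 1, 4 or 5 (0.35 to 0.46), and the Gins1 call without adenoma 1, 2 or 3 or carcinoma 1, 2 or 4 (0.35 to 0.45). Among the lower genes, the calls of Mcm5 (-0.80), Pole2, Prim2, Rpa2, Ccne2 and Pcna were each lost without carcinoma 3, at -0.55, -0.31, -0.33, -0.37, -0.61 and -0.30, and the differences of Dut and Rrm1 were then -0.38 and -0.34. Leaving out other arrays ended some of these calls too, namely adenoma 1 (Mcm5, Pcna, Prim2), adenoma 2 (Mcm5, Pole2, Prim2), adenoma 4 (Mcm5, Pole2, Rpa2, Ccne2) and adenoma 5 (Mcm5, Pole2, Prim2, Rpa2). The same held for carcinoma 2 (Mcm5, Pole2, Prim2, Ccne2), carcinoma 4 (Pole2), carcinoma 5 (Mcm5, Prim2, Rpa2) and, for Mcm5, untreated array 2 and phenobarbital arrays 1, 2 and 5.

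The difference of the tumour effects, adenoma minus phenobarbital liver less carcinoma minus untreated liver, takes each tumour against its own diet. It passed for 9 of the 42, 6 lower and 3 higher, where 46.7% of all genes passed, 23.5% lower and 23.2% higher. The effect was smaller in adenomas for Rpa1 (-2.22, SE 0.26, adjusted p = 6.63e-07), Rfc3 (-1.65, SE 0.50, adjusted p = 0.0107), Orc6 (-1.18, SE 0.17, adjusted p = 1.29e-05), Rpa3 (-0.92), Mcm7 (-0.89) and Tyms (-0.80). It was higher for 3 genes that fell in carcinomas, of which Mcm10 alone also fell in adenomas: Mcm10 (1.84, SE 0.44, adjusted p = 0.00176), Tk1 (1.23, SE 0.35, adjusted p = 0.00689) and Orc1 (0.48, SE 0.17, adjusted p = 0.0269). Carcinoma 3, which stood far above the other carcinomas for Rfc3, enlarged the Rfc3 value here too. Quantile normalization gave 6 lower and 5 higher. The Orc1 call was lost when carcinoma 4 or 5, untreated array 4 or phenobarbital array 3 or 4 was left out (0.41 to 0.44), and the mean of the Tyms probe sets ended the Tyms call (-0.094).

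No member passed the test of the phenobarbital diet in non-tumour liver. With limma, 0 of the 42 passed between phenobarbital and untreated non-tumour liver, 0 had an unadjusted p under 0.05, and 0.225% of all genes passed. For Rpa1 the arrays did not overlap between the diets, at 10.17 to 10.25 on phenobarbital and 9.99 to 10.14 untreated. Its difference was 0.15 (SE 0.18), and as for every member the SE shares the spread of the tumours. The 42 differences had a median of -0.040 and ran from -0.45 (Mcm10) to 0.32 (Chaf1b). The 95% intervals lay between -1.09 and 0.97, so a 2-fold rise lay within none of them. A 2-fold fall lay within that of Mcm10 (-1.09 to 0.20), and smaller differences in single genes can lie within the others. Untreated arrays 3 and 4 were both above arrays 1, 2 and 5 of their group in 24 of the 42 members (57.1%), against 15.3% of all genes, and in 16 of 24 mitosis genes. Mki67, a marker of cycling cells, read 5.23 to 6.27 in phenobarbital liver, against 6.98 and 6.86 on those arrays and 5.04 to 5.38 on the other 3 untreated arrays. Without the 2 arrays the count stayed at 0 of 42, the median phenobarbital difference was 0.049, and 34 members passed in carcinomas.

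Of the 42 members, 31 had several probe sets, 90 over all members, and the mean of a gene's probe sets moved some values by over 1.5 times without changing their direction. In adenomas Mcm10 then fell by 1.00, and Mcm5, Rrm1 and Gins1 rose by 0.83, 0.55 and 0.42. In carcinomas Mcm10 fell by 1.88 and Orc1 by 0.23, while Mcm5, Mcm3, Rrm1 and Pold1 rose by 1.21, 1.06, 0.70 and 0.65 and Prim2, Pola1 and Pole2 by 0.49, 0.40 and 0.36. Between the tumours, Mcm10 was 0.67 higher in adenomas, and Mcm5, Orc1, Dut, Gins1, Pola1, Prim2, Rrm1 and Tyms no longer passed. For the difference of effects Mcm10 gave 0.87, and Orc1 no longer passed (0.11).

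Arrays of the same tumour group differed in the members as a whole. The median deviation of the 42 genes from their means over 20 arrays was 0.17 ± 0.22 in adenomas and 0.53 ± 0.36 in carcinomas, against -0.32 ± 0.062 in phenobarbital liver and -0.33 ± 0.13 in untreated liver (SD, n = 5 each). Carcinoma 3 was the highest of its group in 39 of 42 members and in 24 of 24 mitosis genes, and adenoma 3 in 28 and 21. How often these arrays were highest over all genes was not counted. Without carcinoma 3 the median carcinoma difference was 0.66, and without adenoma 3 the median adenoma difference was 0.55. Mki67 read 8.82, 8.48, 9.27, 7.62 and 8.66 in adenomas and 9.02, 9.09, 10.92, 8.84 and 9.37 in carcinomas, so the array highest in replication genes was highest in Mki67 as well. How far the share of cycling cells sets the members' values was not tested.

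**Figure D4:**
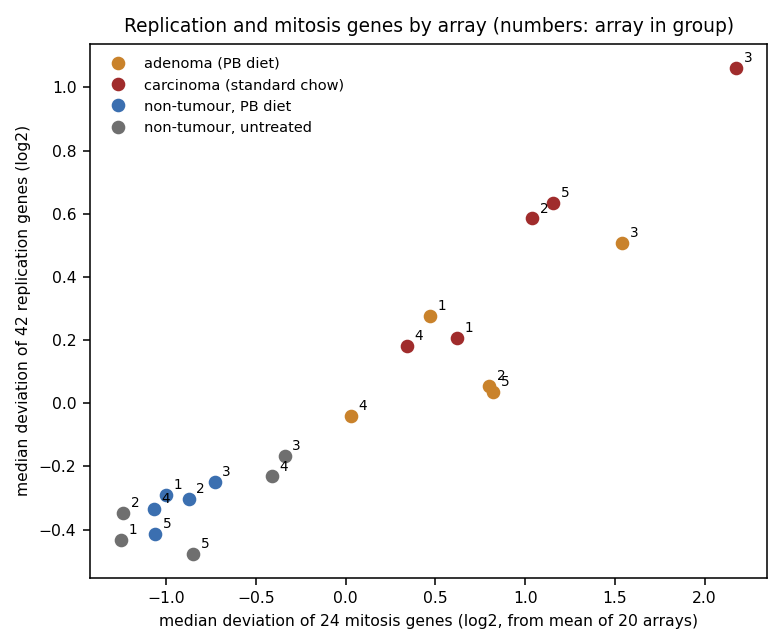
Each point is 1 array, numbered within its group; the x axis is the median deviation of 24 mitosis genes and the y axis that of the 42 replication genes, both in log2 units from each gene's mean of 20 arrays. Carcinoma 3 lies at 2.18 and 1.06, and untreated arrays 3 and 4 lie right of the other 3 of their group.

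Of 39 further replication genes, 12 rose and 3 fell in adenomas, and 23 rose and 5 fell in carcinomas, with medians of 0.18 and 0.48. The share that passed was 38.5% in adenomas and 71.8% in carcinomas, beside 24.7% and 69.2% of all genes, so the second was close to that of all genes. Top2a, which untangles copied DNA, rose by 2.63 (SE 0.42, adjusted p = 1.44e-04) in adenomas and by 3.72 (SE 0.42, adjusted p = 1.97e-07) in carcinomas. Uhrf1, which carries methylation marks to the new strand, rose by 2.31 and 2.83, and Ccna2, the S phase cyclin, by 2.11 and 2.91. Dbf4, the activator of the kinase that fires origins, rose by 1.32 in adenomas and by 1.10 in carcinomas, and Rrm2b, the p53-induced small reductase subunit, by 0.52 and 2.33. Of 24 mitosis genes, 21 rose in adenomas and 22 in carcinomas, where 13.5% and 31.5% of all genes rose, and 1, Foxm1, fell in carcinomas. Mki67 rose by 2.93 (SE 0.42, adjusted p = 4.26e-05) and 3.52 (SE 0.42, adjusted p = 3.82e-07).

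The E2F and pocket protein switch controls many replication genes. Among 17 genes of this switch, 7 rose and 0 fell in adenomas, and 10 rose and 3 fell in carcinomas. The share that passed was 41.2% in adenomas and 76.5% in carcinomas, beside 24.7% and 69.2% of all genes. Split by direction, 13.5% of all genes rose and 11.3% fell in adenomas, and 31.5% rose and 37.7% fell in carcinomas. Rbl1, the E2F-repressing pocket protein p107, rose by 2.12 in adenomas and by 3.87 in carcinomas. Cdkn1a, the p21 inhibitor of cyclin E and Cdk2, rose by 2.38 and 4.48. E2f8, a repressor E2F, rose by 1.91 in adenomas and differed by 0.11 in carcinomas without passing. Cdkn2c, a Cdk4 inhibitor, rose by 1.56 in adenomas and by 0.60 in carcinomas. Cdkn2a, the locus of p16 and p19Arf, and Rb1 rose in carcinomas by 2.78 and 1.53, and differed by 0.038 and -0.22 in adenomas without passing. E2f1, E2f4 and E2f5 fell in carcinomas and did not pass in adenomas.

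Markers of other cell types also differed in the carcinomas, where 69.2% of all genes passed, 31.5% higher and 37.7% lower. Of 8 stellate cell and fibroblast genes, 6 rose and 0 fell, and their mean level was 10.06 to 11.21 in carcinomas, against 7.62 to 8.62 in untreated liver. Of 9 endothelial genes 0 rose and 6 fell, and their mean level was 5.14 to 6.08 in carcinomas, against 7.63 to 8.04 in untreated liver. Both lists passed at near the share of all genes, but each in a single direction. Of 10 macrophage genes 4 rose and 3 fell, and of 4 biliary genes 1 rose, Krt7, a keratin of bile ducts, by 5.23. Of 8 lymphocyte genes 3 rose and 5 fell, and their mean level was 5.63 to 6.20 in carcinomas, against 5.88 to 6.20 in untreated liver. Of 6 erythroid and haematopoietic genes 1 rose, Kit, a receptor of blood progenitors and mast cells, by 3.07, and 5 fell, among them Alas2, the haem synthesis enzyme of red cell precursors, by 4.01.

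In adenomas, where 24.7% of all genes passed, 3 of the 8 stellate and fibroblast genes rose and 2 fell, 2 of the 9 endothelial genes rose and 1 fell, and 2 of the 10 macrophage genes rose and 3 fell. Of the lymphocyte genes 1 rose, Ptprc, a marker of all leukocytes, by 1.26, and of the erythroid and haematopoietic genes 1 fell, Klf1, by 0.90. None of the 4 biliary genes passed. Of all these lists, Cd79a of B cells and Gata1 of erythroid precursors alone were below the array median on every array. The part of other cell types in the members' values was not tested.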

How the data were processed

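RNA of 20 liver samples was measured on Affymetrix arrays. The authors deposited log2 expression values, and RMA is the tool named, per the submitters' processing notes, with no version. RMA corrects background, aligns array distributions and summarises probes, so a shift of all genes would be removed in whole or in part. The table held 45037 probe sets, of which 34945 had a single symbol (932 had several and 9160 none); 34741 matched the RefSeq table (GRCm38.p6), used for names, promoters and neighbours. Each gene took its brightest probe set by mean, giving 18193 genes. Members and lists were chosen with earlier results of these data known.

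A limma 3.58.1 fit (R 4.3.3, 16 residual degrees of freedom) of 4 groups of 5 gave two-sided tests, Benjamini-Hochberg adjusted over all genes within a comparison, called at 0.05. Tables and figures used Python 3.11.15, pandas 2.3.3 and matplotlib 3.10.9. On simulated data, 88% of 2-fold changes and 0.0333% of unchanged genes were called. The simulation gave a gene the same spread in every group and changed few genes, so these rates may not hold for these arrays. Arrays have no read depth; their number limits the precision. Array medians were 5.52 to 5.63. Upper quartiles of the arrays were 7.74 to 7.80 in carcinomas and 7.49 to 7.54 in untreated liver. Lower quartiles were 4.21 to 4.25 in carcinomas and 4.33 to 4.36 in untreated liver, so the deposited distributions still differed. Per-array values are given for a fixed panel, the 2 largest calls per role and comparison, calls against their role's direction and members with opposed probe sets. Alternatives covered probe set choice, scaling, filtering, variance models, array weights, a replicate block and leaving out arrays; replicate numbers did not pair the samples. Explanations were not weighed.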

Additional observations from a re-analysis of the deposited data

Results flagged for a closer look

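In 9 of 168 groups of 5 values (5.4%), 1 array stood apart from the other 4 by Dixon's ratio, about the 1 in 20 that chance gives. Carcinoma 3 was high for Rfc3 (11.69), Lig1 (9.20) and Dut (9.67), and adenoma 3 for Rfc4 (8.21). Untreated array 3 was high for Pola1 (6.59) and Rfc2 (8.63), and untreated array 2 for Rfc1 (8.33). Phenobarbital array 5 was low for Rfc3 (6.998), and phenobarbital array 4 for Ccne1 (5.82).

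In 9 members (21.4%) the effect in adenomas differed from that in carcinomas by the test of the difference itself. That is a smaller share than the 46.7% of all genes that passed this test. It was lower in adenomas for Rpa1 (-2.22), Rfc3 (-1.65), Orc6 (-1.18), Rpa3 (-0.92), Mcm7 (-0.89) and Tyms (-0.80). It was higher for Mcm10 (1.84), Tk1 (1.23) and Orc1 (0.48). Diet and tumour stage cannot be told apart in this difference.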

How the results depend on the processing

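Member counts stayed within 1.5 times of the main count under the alternatives run, with 1 exception: with only the tumours in the fit, adenomas against carcinomas gave 13 calls in place of 23. Leaving out 1 array gave 18 to 25 calls in adenomas (median difference 0.55 to 0.70), 33 to 36 in carcinomas (0.66 to 1.00), 18 to 25 between the tumours (-0.51 to -0.21), 8 to 12 for the difference of tumour effects (-0.45 to -0.20) and 0 for phenobarbital (-0.061 to 0.022). The mean of all probe sets reversed Cdc45 (0.097) and Dut (-0.013) in carcinomas and Fen1 in adenomas (0.27) and carcinomas (0.58); dropping _x_at probe sets reversed Fen1 as well (0.96 in adenomas, 1.55 in carcinomas), since another probe set was then read. Of the called members, 13 of 21 in adenomas, 26 of 36 in carcinomas, 8 of 23 between the tumours and 7 of 9 for the difference of effects kept their call in every setting run. Phenobarbital counts over all genes were 1.53% of genes with only the 2 groups in the fit, in place of 0.225%, and members stayed at 0. Chosen after seeing the data, fitting every probe set and counting the brightest of each gene left the member counts as they were. Setting aside 4 members with opposed probe sets gave 19 calls in adenomas and 32 in carcinomas. Counting any probe set, 21 members had a higher and 4 a lower call in adenomas, and 32 and 7 in carcinomas.

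The replicate block gave 22 calls in adenomas, 36 in carcinomas, 25 between the tumours, 11 for the difference of effects and 0 for phenobarbital. Same-numbered samples deviated together with correlations of -0.11 to 0.13, and in 16 of 60 cases a sample correlated best with its own number in another group, so the numbers did not pair the samples. Signal near background limits the 4 dim members (Cdc6, Tyms, Pole2, Chaf1b).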

Other observations

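Of 10 translesion and repair polymerase genes, which copy past or fill in damaged DNA, 1 rose and 2 fell in adenomas against phenobarbital liver, and 6 rose and 1 fell in carcinomas against untreated liver. These shares, 30.0% and 70.0%, were close to the 24.7% and 69.2% of all genes that passed in either direction. By direction, 13.5% of all genes rose and 11.3% fell in adenomas, and 31.5% rose and 37.7% fell in carcinomas. Rev3l, the catalytic subunit of polymerase zeta, fell by 0.56 in adenomas (SE 0.10, adjusted p = 2.53e-04), and rose by 2.51 in carcinomas (SE 0.10, adjusted p = 2.61e-14). The difference between the tumours, adenoma minus carcinoma, was -3.19 for this gene. Mad2l2, the partner subunit of the same enzyme, fell by 0.65 in carcinomas, opposite to Rev3l, and differed by 0.064 in adenomas without passing. Polk, polymerase kappa, rose in both, by 0.57 in adenomas and by 1.15 in carcinomas. Rev1, which recruits these enzymes, rose by 1.65 in carcinomas and differed by 0.44 in adenomas without passing.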
